A study of Macaca mulatta with 449 samples.

Results

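The voltage-gated sodium channel subunits were taken as the rows of the gene count table that matched 8 gene symbols, SCN1A, SCN2A, SCN3A, SCN8A, SCN9A, SCN2B, SCN3B and SCN4B. A row was matched for 6 of the 8, out of 30807 genes in the table, and SCN2B and SCN4B were not analysed here. The counts came from RNA sequencing after removal of ribosomal RNA (Ribo-zero RNA-seq) in 51 sub-regions of the rhesus macaque brain, with 1 sample from each of 8 animals for every sub-region. The animals were 4 males and 4 females. Of these, 4 were young (animals 4, 7, 8 and 10, aged 3.2 to 5 years) and 4 mid-aged (animals 2, 3, 6 and 11, aged 9.8 to 10 years), with 2 of each sex at each stage. No animal carried a treatment or an engineered allele in the labels.

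Voltage-gated sodium channels open when the membrane depolarizes and carry the inward current of the action potential. Each channel has 1 large pore-forming alpha subunit, joined by smaller beta subunits that alter its gating and its placement in the membrane. Neurons gather these channels at the axon initial segment and at the nodes of Ranvier, and different classes of neurons favor different alpha subunits. Among the alpha subunits measured, SCN1A is known as the main channel of fast-spiking inhibitory neurons of the forebrain, SCN2A as that of excitatory principal neurons and SCN8A as that of mature nodes and initial segments. SCN3A is known for its high level before birth and SCN9A for its role in pain-sensing neurons of the periphery. SCN3B encodes a beta subunit that binds the pore without a covalent bond.

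Total counts ranged from 7784678 to 31083490 per sample, with a median of 10698602, and 0 libraries were identical to another. The sub-regions were joined into 16 region groups by summing counts within each animal: olfactory bulb (OB), cortex (31 sub-regions), entorhinal and perirhinal cortex (PA), corpus callosum (CC), thalamus (THA), hypothalamus (HTHA), medulla oblongata (MO), pons (PON), cerebellum (CB), ventral tegmental area (VTA), substantia nigra (SN), amygdala (AMY), hippocampus (HIP), striatum (STR), globus pallidus (GP) and pituitary (PIT). Levels are given as CPM, counts scaled to a common total, on TMM-scaled library sizes. A list of 6 neuron markers averaged 10.22 on the log2(CPM + 1) scale in the cortex, 5.58 in CC and 5.36 in PIT. CC stood at 12.62 for oligodendrocyte markers and PIT at 13.94 for anterior pituitary markers. 2 libraries of animal 6 stood apart. Its hypothalamus had a cortex marker mean of 5.42 against 1.59 to 2.35 in the other 7 animals, and its medulla had a neuron marker mean of 5.80 against 9.40 to 10.19.

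All 6 subunits differed between the 16 region groups, as did 99.7% of all genes tested (edgeR quasi-likelihood F test with the animal as a block, false discovery rate (FDR) below 0.05 by Benjamini-Hochberg adjustment). Against the cortex, a gene was called higher or lower at FDR < 0.05 with an absolute log2 fold change (log2FC) above 1. Of 90 pairs of a subunit and a region group, 9 were called higher and 41 lower. Over all genes tested, 24.5% of such pairs were called, 12.3% higher and 12.2% lower. All 6 subunits were called lower in CC, but elsewhere not all of them fell together. Each had a different region group with the highest mean, while CC had the lowest mean for SCN2A, SCN3A and SCN8A alike. In bulk tissue, fewer cells of a type and less RNA per cell cannot be told apart.

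**Figure D1:**
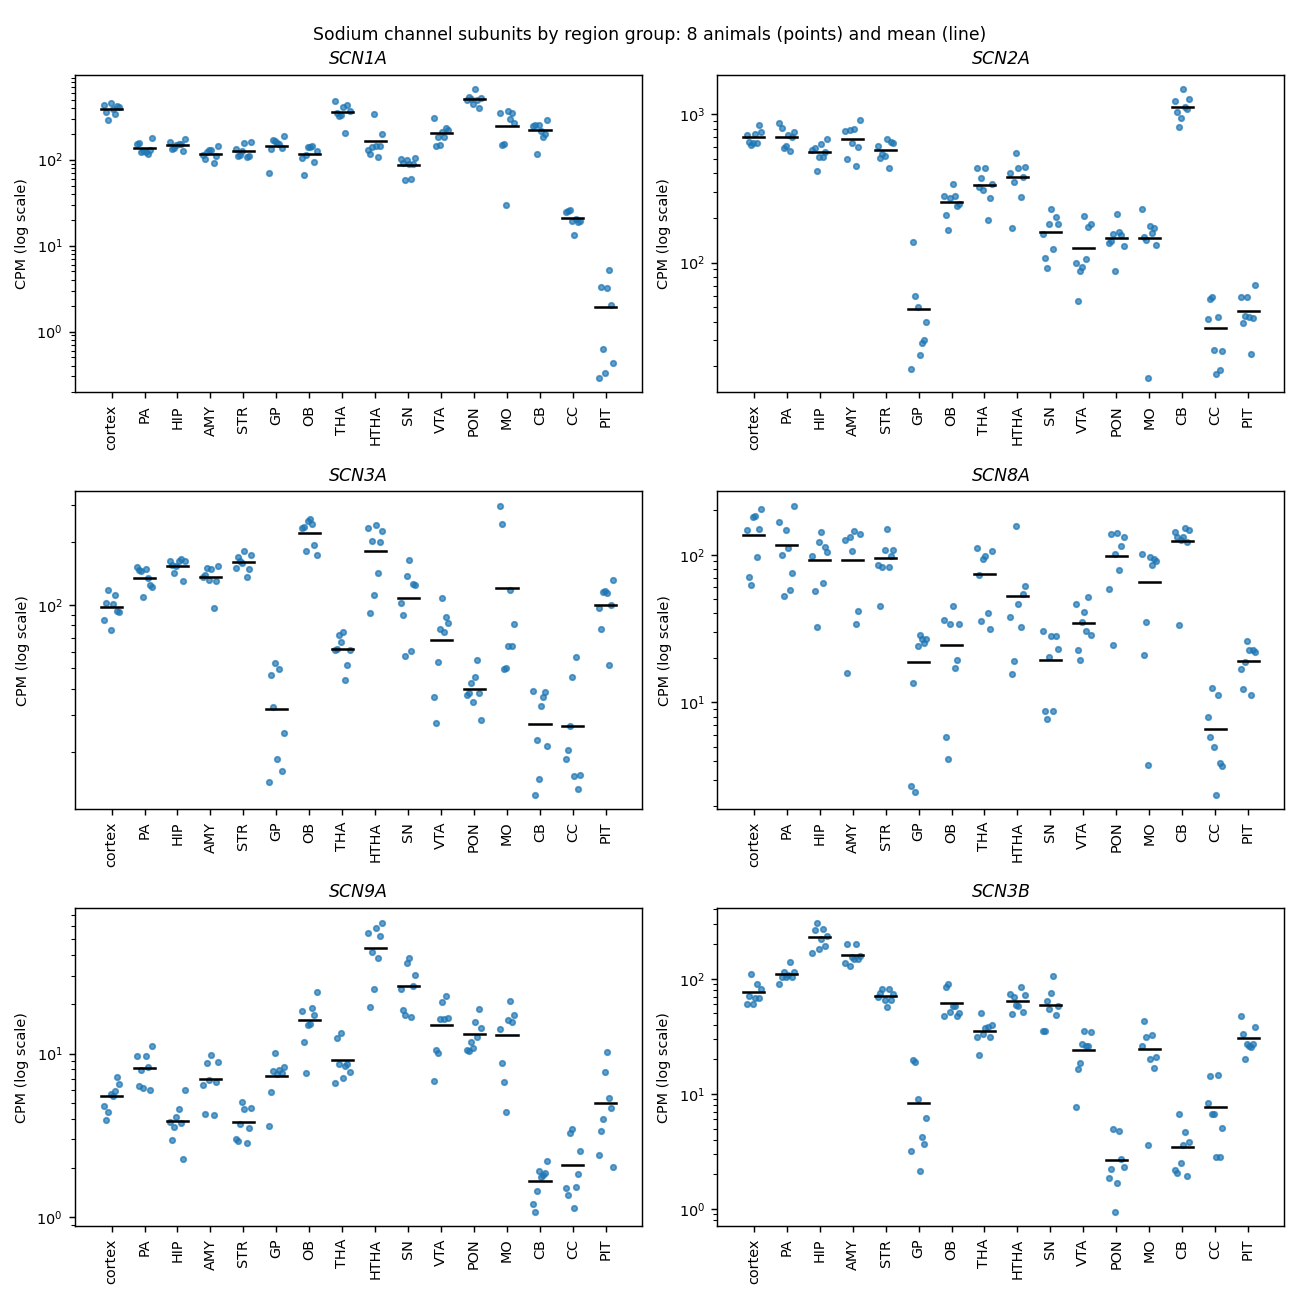
CPM (log axis) of the 6 measured subunits in 16 region groups; each point is 1 animal (8 per group) and the line is the mean. SCN1A was highest on average in PON, SCN2A in CB, SCN3A in OB, SCN8A in the cortex, SCN9A in HTHA and SCN3B in HIP.

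CC, PIT and GP, with the lowest neuron marker means of the 16 groups, had 15 of the 41 lower calls. In CC, all 6 subunits were called lower, where 44.2% of all genes tested were called in either direction. The median log2FC of the 6 was -3.74 in CC, beside -0.02 over all genes tested. In PIT 4 were lower and 0 higher, beside 44.7% of all genes called. In GP 5 were lower and 0 higher, beside 34.8%. The neuron marker mean was 8.50 in GP, below the 10.22 of the cortex, and its part in these differences was not tested.

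In the brainstem and midbrain regions, called subunits went both ways. MO, PON, SN and VTA each had 1 subunit higher and 3 lower. The percentages of all genes called were 28.3% in MO, 24.9% in PON, 28% in SN and 28.3% in VTA. In OB 2 were higher and 3 lower, beside 22.5% of all genes, and in HTHA 1 was higher and 2 lower, beside 18.6%. CB had 3 lower and 0 higher, beside 25.7%, and THA had 2 lower and 0 higher, beside 19.7%.

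The values in MO and HTHA include the 2 libraries of animal 6 that stood apart. Without its medulla library, a setting chosen after seeing the data, the log2FC in MO went from -1.01 to -0.81 for SCN8A, which lost its call. It went from -0.68 to -0.49 for SCN1A, from -2.28 to -2.10 for SCN2A, from -1.68 to -1.51 for SCN3B and from 1.24 to 1.38 for SCN9A, with no change of call. Without its hypothalamus library, SCN2A in HTHA went from -0.90 to -1.08 and was then called lower. In the same setting SCN1A in HTHA went from -1.23 to -1.52, SCN8A from -1.42 to -1.85, SCN3A from 0.88 to 0.93 and SCN9A from 2.99 to 3.06, again with no change of call.

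In the amygdala, hippocampus, striatum and entorhinal and perirhinal cortex, 1 or 2 of 6 subunits were called. AMY had 1 subunit higher and 1 lower, where 9.54% of all genes were called. HIP likewise had 1 higher and 1 lower, beside 12.4%. STR had 0 higher and 1 lower, beside 16.9%, and PA had 0 higher and 1 lower, beside 8.92%. SCN1A was the lower subunit in all 4 of these regions, and SCN3B the higher one in both AMY and HIP.

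**Figure D2:**
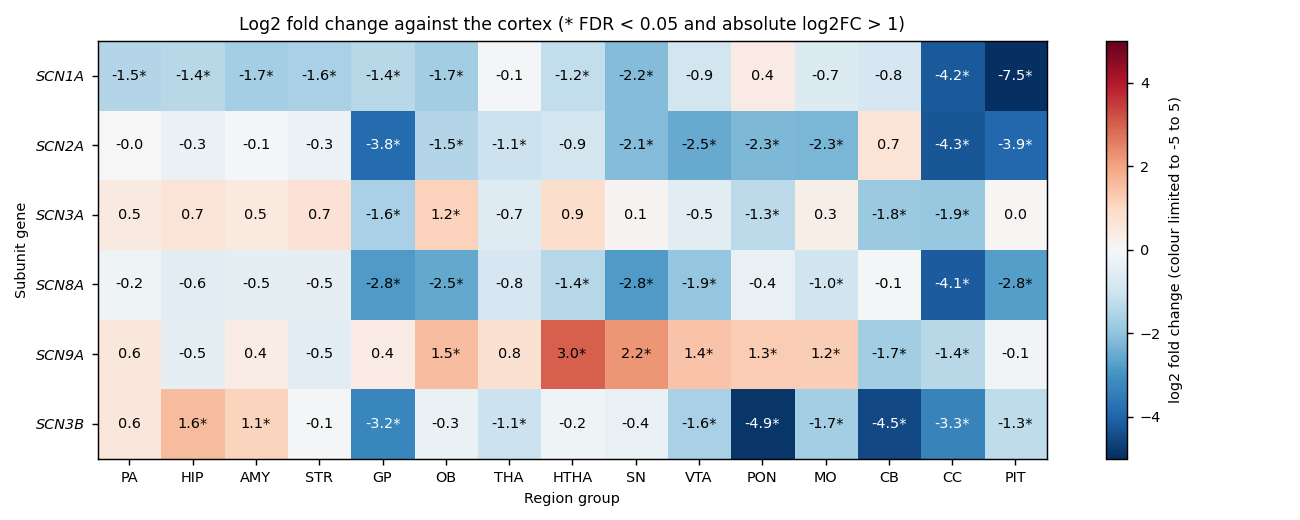
Log2 fold change of each subunit (vertical axis) in each of 15 region groups (horizontal axis) against the cortex; color gives the fitted value and asterisks mark FDR < 0.05 with absolute log2FC above 1. SCN9A holds 6 of the 9 higher calls, and all 6 subunits are lower in CC.

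SCN1A had its lowest, median and highest values in PON at 395, 505 and 665 CPM, and in the cortex at 293, 401 and 452 CPM. The ranges of PON and the cortex overlapped, and 6 of 8 animals had their highest region group value in PON. The cortex value joins 31 sub-regions, and some of these had higher means than the 507 CPM of PON. Among them were the anterior and posterior superior occipital gyri, at 583 and 550 CPM. The fitted difference was a log2FC of 0.40 ± 0.22 (SE, n = 8), which did not pass the test (edgeR FDR = 0.102). THA, at 207, 356 and 476 CPM, also overlapped the cortex, with a log2FC of -0.10 ± 0.22 (edgeR FDR = 0.719).

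In 10 of 15 region groups SCN1A was called lower than in the cortex, and in 0 higher. PIT was the extreme, with a lowest, median and highest value of 0.289, 1.33 and 5.27 CPM. No animal's PIT value reached the lowest value of any other region group, which was 13.3 CPM in CC. The fitted change in PIT was a 186-fold lower level, a log2FC of -7.54 ± 0.31 (SE, n = 8, edgeR FDR = 2.12e-44), and 2 PIT libraries held at most 3 SCN1A counts. CC followed with a log2FC of -4.19 ± 0.25 and SN with -2.16 ± 0.23. Between these ends SCN1A stood at a mean of 118 to 148 CPM in HIP, GP, PA, STR and AMY.

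SCN2A had its highest level in CB in all 8 animals, at 826, 1110.0 and 1483 CPM for the lowest, median and highest animal. The cortex held 623, 691 and 853 CPM, and the lowest cerebellar value lay inside the cortical range. The log2FC of CB against the cortex was 0.67 ± 0.24 (SE, n = 8, edgeR FDR = 0.0102), below the fold limit for a call. PA and AMY lay close to the cortex, with mean levels of 705 and 683 CPM.

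SCN2A was called lower in 9 of 15 region groups. GP, PIT and CC formed its low end, at highest values of 139, 70.7 and 58.9 CPM, all below the lowest cortical value of 623 CPM. The log2FC was -3.84 ± 0.27 in GP, -3.91 ± 0.27 in PIT and -4.26 ± 0.28 in CC. In GP SCN2A fell 14.3-fold while SCN1A fell 2.63-fold. In PON SCN2A fell by 2.26 on the log2 scale (SE 0.25, edgeR FDR = 5.09e-14), where SCN1A did not pass the test.

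SCN3A was highest in OB, where its lowest, median and highest values were 172, 233 and 257 CPM, against 76.3, 97.3 and 118 CPM in the cortex. The 2 groups did not overlap, and the log2FC was 1.17 ± 0.25 (SE, n = 8, edgeR FDR = 2.54e-05). The olfactory bulb is known to receive new neurons after birth, and any part of these in the SCN3A level was not tested. HTHA, STR and HIP passed FDR < 0.05 below the fold limit, with log2FC of 0.88, 0.71 and 0.65.

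The 4 regions in which SCN3A was called lower were CC, CB, GP and PON. In CB its values ran from 12.5 to 38.9 CPM, a log2FC of -1.85 ± 0.26 (SE, n = 8, edgeR FDR = 3.82e-10) in the region where SCN2A was at its highest. In PIT SCN3A did not differ by the test, with a log2FC of 0.04 ± 0.25 (edgeR FDR = 0.877). PIT values of 51.9 to 131 CPM spanned the cortical range of 76.3 to 118 CPM. In MO the animals were spread, from 49.6 to 296 CPM, with animals 2 and 3 at 296 and 242 CPM and the other 6 at 118 CPM or less.

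SCN8A was highest on average in the cortex, at 62.8, 148 and 204 CPM for the lowest, median and highest animal, and the highest group was the cortex in 3 of 8 animals. CB (33.6, 132 and 151 CPM) and PA (52.9, 106 and 214 CPM) overlapped it. SCN8A was called lower in 8 region groups and higher in 0. In CC its values were 2.37, 5.43 and 12.5 CPM, a log2FC of -4.15 ± 0.41 (SE, n = 8, edgeR FDR = 8.10e-17). GP, SN, PIT, OB and VTA also lay wholly below the cortical value of the lowest animal, at log2FC from -2.82 to -1.92. That value joins 31 sub-regions. Single cortical samples of SCN8A went down to 5.43 CPM, in the posterior cingulate gyrus of animal 4, so at the level of samples these groups overlapped the cortex. The call of SCN8A in MO, at a log2FC of -1.01 ± 0.35, was at the fold limit, and its log2FC was -0.85 without animal 6, -0.95 without animal 3 and -0.98 without animal 11.

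SCN8A also varied between animals. In the cortex, animals 3, 4 and 8 had 70.7, 62.8 and 96.3 CPM, and the other 5 animals had 148 to 204 CPM. These 3 animals were below the median of the 8 in 14, 14 and 13 of the 16 region groups, and animal 4 was the lowest in 9. They were below it in 10, 12 and 11 groups for SCN1A and in 12, 10 and 10 for SCN2A. For SCN9A these counts were 15, 11 and 8, for SCN3A 7, 6 and 8 and for SCN3B 7, 4 and 3. Low values in these animals were thus not limited to SCN8A. Of the variation in log2(CPM + 1) over 51 sub-regions, 48.7% lay between sub-regions, 21.6% between animals and 29.7% was left over for SCN8A. For the other 5 subunits 77.9% to 92.4% lay between sub-regions, 1.4% to 6.2% between animals and 5.1% to 19.6% was left over. The medians over all genes tested were 59.8%, 9.9% and 26.3%. Over the 31 cortical sub-regions 45.1% lay between animals and 46.7% was left over for SCN8A. There 13.6% to 30.3% lay between animals for the other 5 subunits. The medians over all genes tested were 26.7% between animals and 48.1% left over, so the left-over share of SCN8A was near the median. Samples of the same animal were spread, as in animal 4 from 5.43 CPM in the posterior cingulate gyrus to 187 CPM in the posterior superior parietal gyrus. Animals 3, 4 and 8 were of both sexes and both stages.

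SCN9A was called higher more often than lower, with 6 of 15 region groups called higher than the cortex and 2 lower. HTHA held 19.2, 47.1 and 63.2 CPM against 3.94, 5.61 and 7.18 CPM in the cortex, with no overlap. This was a 7.96-fold higher level, a log2FC of 2.99 ± 0.21 (SE, n = 8, edgeR FDR = 1.51e-24), and HTHA was highest in 7 of 8 animals. SN followed at 16.7, 25.4 and 38.3 CPM, a log2FC of 2.23 ± 0.20 or 4.68-fold, also without overlap with the cortex.

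OB, VTA, PON and MO were the other 4 regions with higher SCN9A, with log2FC of 1.54, 1.42, 1.26 and 1.24. THA passed FDR < 0.05 at a log2FC of 0.77, below the fold limit. CB was lowest at 1.08, 1.78 and 2.21 CPM, a log2FC of -1.73 ± 0.22 (SE, n = 8, edgeR FDR = 1.12e-11), and CC had a log2FC of -1.40 ± 0.23. SCN9A had the fewest counts of the subunits, with a median of 59 per library and a lowest count of 9.

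Among the authors' assembled transcripts, SCN1A lay on chromosome 12 from 52905990 to 53051965 of Mmul 8.0.1, on the minus strand, in 28 exons. SCN9A lay on the same chromosome from 53132019 to 53313153, also on the minus strand, in 27 exons, and 1 assembled locus on the opposite strand overlapped it. The strand option of the counting was not given in the sources used here, so for SCN9A reads of that locus cannot be told apart. Alpha subunit genes are similar in sequence, and how reads shared by near-identical stretches were assigned is likewise not given.

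SCN3B, the beta subunit, was highest in HIP in all 8 animals, at 166, 227 and 306 CPM, against 59.9, 69.7 and 109 CPM in the cortex. The groups did not overlap, and the difference was 3.01-fold, a log2FC of 1.59 ± 0.24 (SE, n = 8, edgeR FDR = 1.05e-08). AMY was second at 130, 151 and 202 CPM, 2.14-fold above the cortex with no overlap (edgeR FDR = 6.60e-05). The cortical values here join 31 sub-regions in each animal. Single cortical samples reached 262 CPM in the posterior cingulate gyrus of animal 4, inside the range of HIP. The other animals had 62.1 to 128 CPM there, but the ventromedial prefrontal cortex of animal 3 had 185 CPM, also inside that range. Samples of the anterior cingulate gyrus reached 196 CPM in animal 4 and 155 CPM in animal 8, inside the range of AMY. PA came next with a median of 106 CPM and a highest value of 139 CPM, overlapped the cortex and did not pass the test (log2FC of 0.55 ± 0.23, edgeR FDR = 0.0552).

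SCN3B was called lower in 8 region groups, and PON and CB were its low end. PON held 0.950, 2.28 and 4.92 CPM, 29.2-fold below the cortex at a log2FC of -4.87 ± 0.30 (SE, n = 8, edgeR FDR = 6.31e-29). CB held 1.94, 3.07 and 6.74 CPM, 22.6-fold below at -4.50 ± 0.28. Both regions had neuron marker means close to that of the cortex, at 10.79 in PON and 10.06 in CB beside 10.22. CC had a neuron marker mean of 5.58 and an SCN3B log2FC of -3.34, and the part of neuron content in these values was not tested.

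When neighbors in each subunit's order of 16 means were compared within animals, 0 of 90 pairs differed after adjustment over the 90 (2-sided exact sign-flip permutation test, n = 8, lowest adjusted p = 0.0781). Before adjustment 20 pairs had an exact p below 0.05, of which 9 were at 0.00781, the smallest that 8 animals allow. SCN3B had 6 of these 20 and SCN8A 0. The steps of SCN3B from HIP to AMY, from AMY to PA and from PA to the cortex each went the same way in 8 of 8 animals. At the smallest exact p, a pair could pass the adjustment over 90 only if many others were also at it. The test thus could not separate a pair taken alone, however large its step. The step of SCN1A from CC to PIT, with a mean log2 difference of 3.12 and 8 of 8 animals alike, did not pass. The orders are therefore a description, and neighboring regions are not separated by this test.

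Ratios of 2 subunits within a sample do not depend on how libraries are scaled, so each ratio was compared between a region group and the cortex in the same animal. Of 45 comparisons for SCN1A, SCN8A and SCN3A each over SCN2A, 22 ratios were higher than in the cortex and 14 lower (2-sided exact sign-flip permutation test, adjusted p < 0.05 over the 45). With the mean of sub-region log2 ratios in place of summed counts, 9 were lower, as SCN1A over SCN2A in HTHA and SCN8A over SCN2A in HTHA, SN, AMY and HIP no longer passed. The ratio of SCN1A to SCN2A was 6.39-fold higher in PON, with a mean log2 difference of 2.68 ± 0.18 (SD, n = 8, exact p = 0.00781, the smallest possible, adjusted p = 0.0117). It was higher in all 8 animals, as it also was in GP (6.44-fold), VTA (3.15-fold), MO (2.94-fold) and THA (1.97-fold).

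The same ratio was lower in all 8 animals in PIT, AMY, CB, PA, STR and HIP, at 0.0492, 0.321, 0.351, 0.359, 0.404 and 0.485 of the cortical ratio. The ratio was thus higher in PON, MO, VTA, THA and GP, and lower in the amygdala, hippocampus, striatum and cerebellum, among others. A higher ratio was not a higher SCN1A level, as SCN1A was called higher than in the cortex in 0 of 15 region groups. In HTHA the ratio was 0.788 of the cortical ratio with an adjusted exact p of 0.0488 (n = 8). There 7 of 8 settings that left out 1 animal put the adjusted p above 0.05. In SN the ratio differed little, with a mean log2 difference of 0.02 ± 0.38 (SD, n = 8, exact p = 0.914).

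SCN3A over SCN2A was higher than in the cortex in 14 of 15 region groups, in all 8 animals each time. The 3 ratios share SCN2A, which was itself called lower in 9 region groups, so they are not separate results. SCN3A itself was called lower in CC, GP and PON and did not differ by the test in PIT. PIT was 15.5-fold higher, OB 6.30-fold and MO 5.65-fold, and THA the least at 1.35-fold. CB was the exception, at 0.165 of the cortical ratio in all 8 animals (mean log2 difference of -2.60 ± 0.64, SD, n = 8, exact p = 0.00781, adjusted p = 0.0117). SCN8A over SCN2A was higher in PON (3.37-fold), PIT (2.25-fold) and MO (2.08-fold), and lower in 6 region groups. The lower ones were OB, CB, AMY, SN, HTHA and HIP, at 0.417, 0.573, 0.610, 0.615, 0.647 and 0.838 of the cortical ratio. The calls in CB, AMY and HIP were lost in 6, 7 and 7 of the 8 settings that left out 1 animal.

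**Figure D3:**
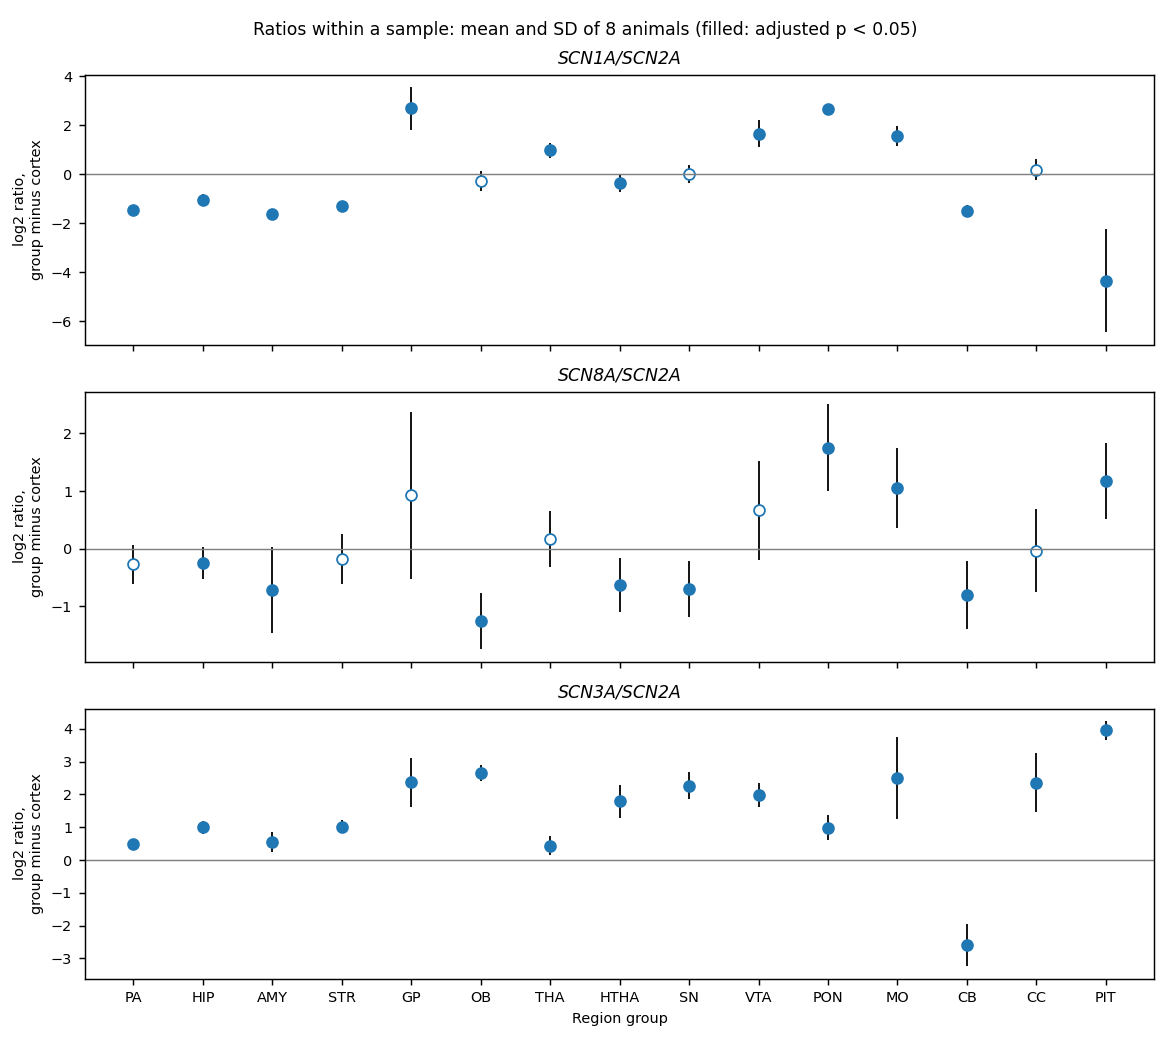
Difference in the log2 ratio of each of 3 alpha subunits to SCN2A between a region group and the cortex (vertical axis), by region group (horizontal axis); points are means and bars SD of 8 animals, and filled points have an adjusted p below 0.05. SCN1A over SCN2A is 6.39-fold higher in PON and 0.321 of the cortical ratio in AMY.

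Within the cortex, the 31 sub-regions differed for 5 of the 6 subunits, where 75% of all genes differed (edgeR F test, FDR < 0.05). SCN8A was the one that did not pass (edgeR FDR = 0.202). SCN1A and SCN3B had the steepest courses, and they ran in opposite directions.

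For the lobes, each was compared with the mean of the other 4 at FDR < 0.05 with no fold limit, and 8 pairs of a subunit and a lobe were higher and 8 lower of 30. In the occipital lobe 5 of 6 subunits were called, beside 56.3% of all genes tested, and in the frontal lobe 4 of 6, beside 44%. The parietal lobe had 3 called, beside 9.64% of all genes, the temporal lobe 2, beside 25.7%, and the limbic cortex 2, beside 15.9%. Without the animal as a block the counts were 5 higher and 3 lower. The 8 calls lost were SCN1A, SCN3A and SCN3B in the parietal lobe, SCN3A and SCN9A in the frontal lobe, SCN1A in the limbic cortex, SCN3A in the occipital lobe and SCN2A in the temporal lobe.

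SCN1A averaged 550.3 CPM in the occipital lobe (404 to 678 CPM) and 309 CPM in the frontal lobe (217 to 386 CPM), and these ranges did not overlap. Its log2FC was 0.68 ± 0.07 in the occipital lobe (SE, n = 8, edgeR FDR = 1.02e-10). It was 0.305 ± 0.07 in the parietal lobe, -0.44 ± 0.07 in the frontal lobe and -0.38 ± 0.07 in the limbic cortex, all called. The temporal lobe did not pass, at -0.17 ± 0.07 (edgeR FDR = 0.0807).

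SCN3B went the other way. It averaged 27.5 CPM in the occipital lobe (18.7 to 41.5 CPM) and 94.9 CPM in the frontal lobe (75.7 to 126 CPM), again without overlap. The log2FC was -1.51 ± 0.05 in the occipital lobe (SE, n = 8, edgeR FDR = 3.39e-22) and 0.80 ± 0.05 in the frontal lobe, and all 5 lobes were called. SCN9A was higher in the occipital lobe by 0.51 ± 0.07 on the log2 scale (edgeR FDR = 3.06e-07).

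The calls of SCN2A and SCN3A between lobes were small, at an absolute log2FC of 0.22 or less. The call of SCN3A in the frontal lobe (edgeR FDR = 0.0469) was lost when animal 2, 6, 7, 8, 10 or 11 was left out, and that in the parietal lobe (edgeR FDR = 0.0314) when animal 2, 3, 6, 8 or 10 was. SCN8A was called in 0 of 5 lobes, and its absolute log2FC was 0.34 or less. Neuron, oligodendrocyte and astrocyte marker means moved between lobes too. They were 10.02, 6.96 and 8.39 in the frontal lobe and 10.27, 7.78 and 7.89 in the occipital lobe on the log2(CPM + 1) scale, and their part in these results was not tested.

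**Figure D4:**
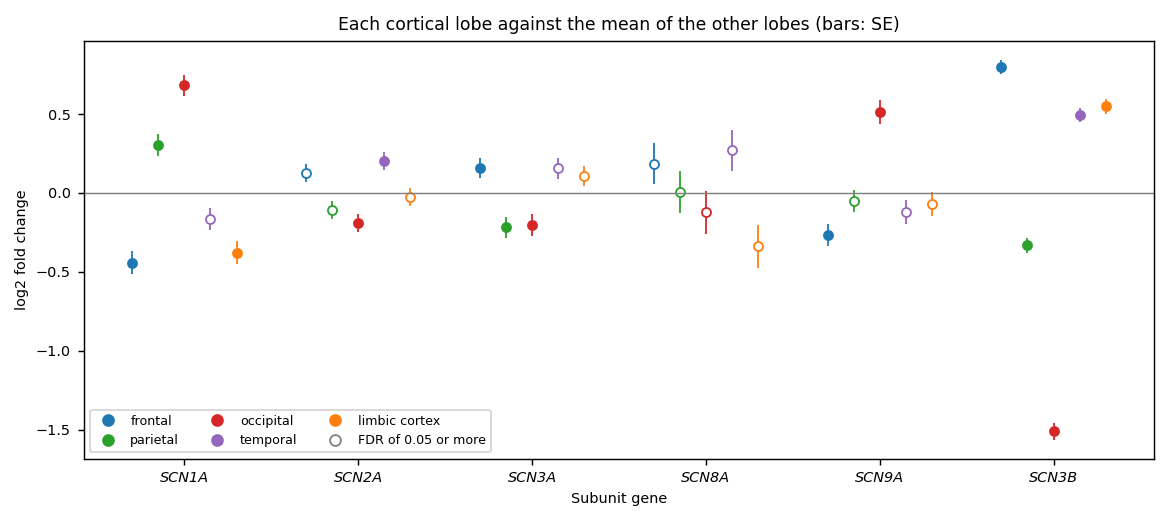
Log2 fold change (vertical axis) of each subunit in each of 5 cortical lobes against the mean of the other 4, with SE bars (8 animals). SCN3B is lowest and SCN1A highest in the occipital lobe, at -1.51 and 0.68.

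Sub-region by sub-region, SCN1A was highest in the anterior superior occipital gyrus (aSOG) at 583 ± 122 CPM and lowest in the temporal polar gyrus (TPG) at 160 ± 34.4 CPM (SD, n = 8). The values did not overlap, and the fold within an animal was 2.90 to 4.50. SCN3B was highest in the anterior cingulate gyrus (ACG) at 137.5 ± 30.5 CPM and lowest in the posterior superior occipital gyrus (pSOG) at 26.7 ± 9.23 CPM. Its fold within an animal was 4.33 to 7.55, with no overlap. TPG and ACG, high for SCN3B at 136 and 137.5 CPM, were low for SCN1A at 160 and 185 CPM.

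SCN3A was highest in TPG at 138 ± 6.72 CPM and lowest in the superior precentral gyrus at 65.8 ± 11.8 CPM, without overlap. SCN2A ranged less, from 521 ± 112 CPM in the inferior postcentral gyrus to 830.3 ± 101 CPM in the anterior superior frontal gyrus. SCN8A went from 172 ± 84.3 CPM in the posterior superior frontal gyrus to 99.6 ± 57.4 CPM in pSOG, in the same direction in 7 of 8 animals and with overlap. These ends were chosen as the highest and lowest means and carry no test.

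Across the 31 cortical sub-regions, the mean levels of SCN1A and SCN3B had a Pearson correlation of -0.941 (Spearman -0.963), and those of SCN1A and SCN3A one of -0.837. Over all 51 sub-regions SCN1A and SCN3B had a Pearson correlation of 0.01 and a Spearman correlation of -0.359. The points are sub-regions from the same 8 animals and libraries, so these values are a description. When each animal's cortical profile was set against the mean of the other 7, the correlation was 0.83 to 0.95 for SCN1A, 0.85 to 0.97 for SCN3B and -0.35 to 0.37 for SCN8A. Between-sub-region shares of cortical variation were 70.2% for SCN1A, 76.9% for SCN3B and 8.2% for SCN8A, beside a median of 18.3% over all genes tested.

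**Figure D5:**
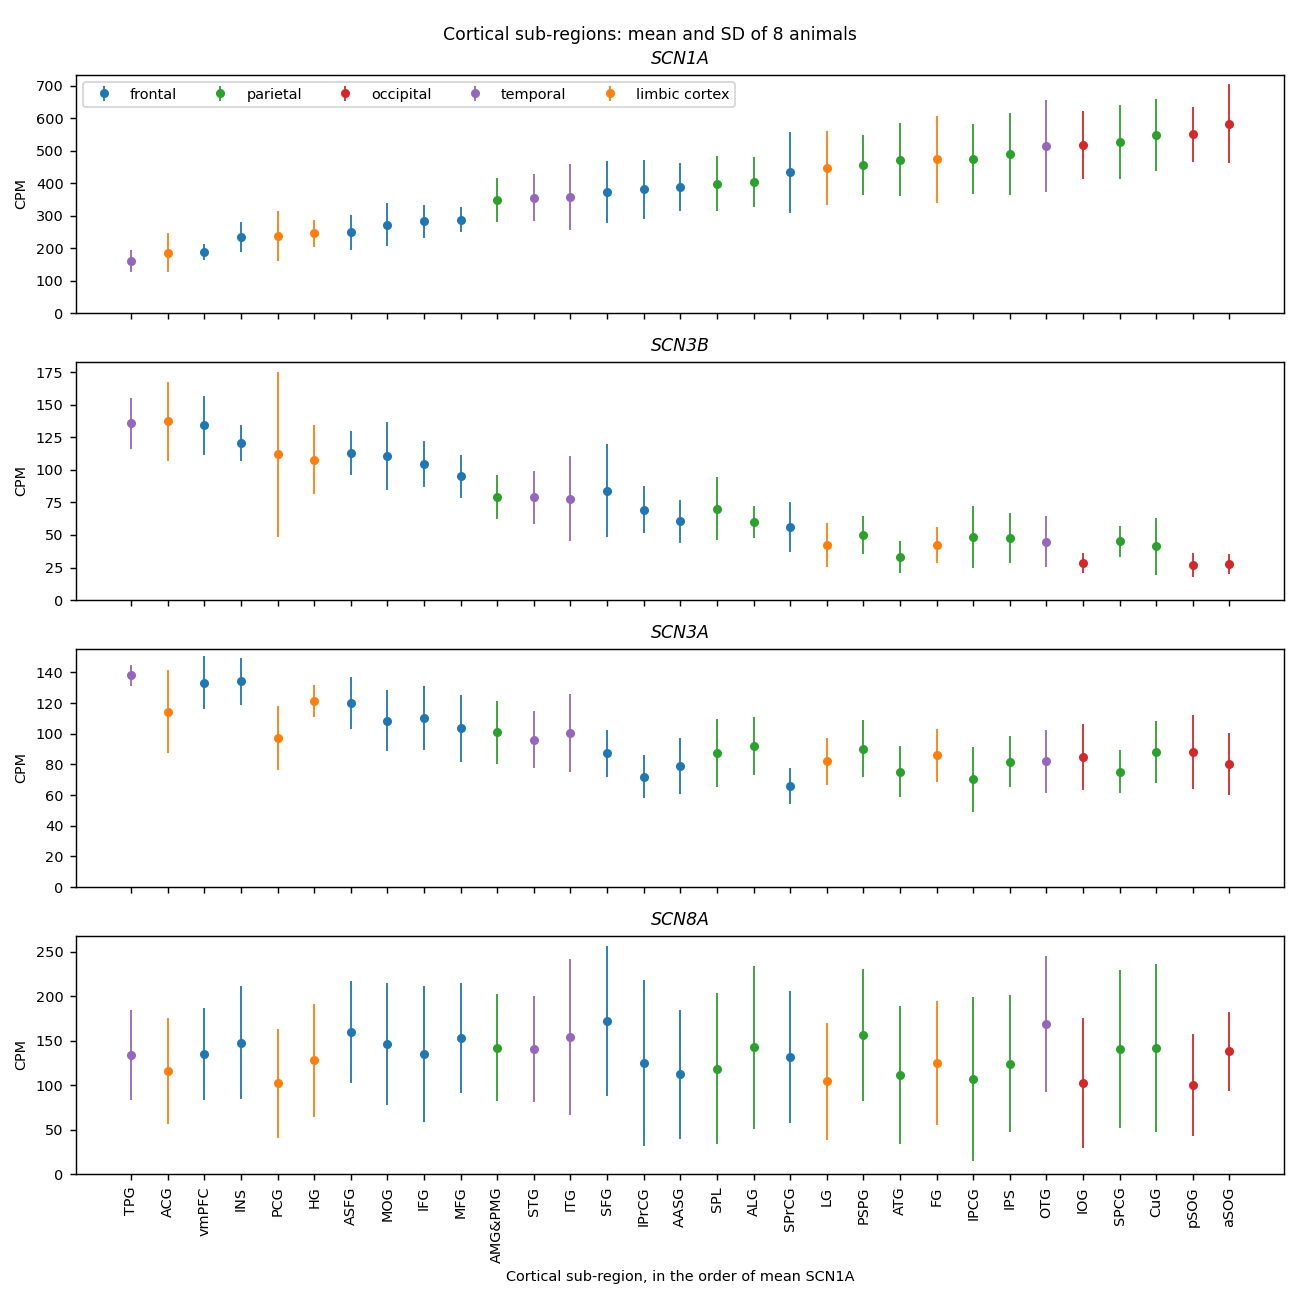
Mean and SD (8 animals) of CPM in 31 cortical sub-regions, ordered by mean SCN1A, with colors for the lobes. SCN1A spans 583 CPM in aSOG to 160 CPM in TPG, and SCN3B runs the other way, from 26.7 CPM in pSOG to 137.5 CPM in ACG.

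Within the striatum, SCN8A was lower in the accumbens nucleus (ACb) than in the caudate nucleus (CN). Its lowest, median and highest values were 19.2, 65.3 and 109 CPM in ACb and 77.9, 121 and 180 CPM in CN, with overlap. This was 1 of 6 subunits called, beside 3.96% of all genes tested, at a log2FC of -1.09 ± 0.26 (SE, n = 8, edgeR FDR = 0.00356). It fell below the fold limit when animal 3, 4 or 11 was left out, at -0.97, -0.94 and -0.96.

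SCN9A was higher in ACb than in the putamen (PUT), at 4.08, 4.98 and 9.17 CPM against 1.31, 2.25 and 3.94 CPM, without overlap. The log2FC was 1.19 ± 0.18 (SE, n = 8, edgeR FDR = 1.62e-05), the 1 call of 6 beside 8.75% of all genes. CN against PUT had 0 of 6 called, beside 4.82% of all genes. There SCN1A was lower by 0.61 ± 0.10 and SCN3A higher by 0.78 ± 0.15 on the log2 scale, both at FDR < 0.05 and below the fold limit.

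Within the hippocampus, SCN9A was higher in CA1 than in the dentate gyrus (DG), at 2.22, 5.03 and 7.38 CPM against 1.12, 2.05 and 3.54 CPM, with overlap. The log2FC was 1.05 ± 0.19 (SE, n = 8, edgeR FDR = 4.81e-04), the 1 call of 6 beside 3.53% of all genes, and it was 0.99, 0.98 and 0.91 without animal 4, 7 or 8. CA3 against DG had 0 of 6 called, beside 3.02% of all genes, and CA1 against CA3 0 of 6, beside 0.0203%. SCN3A was lower in CA3 and CA1 than in DG, at log2FC of -0.86 ± 0.15 and -0.74 ± 0.15, both at FDR < 0.05 and below the fold limit. In the cerebellum, vermis (CBV) against cerebellar cortex (CBC) had 0 of 6 called, beside 0.225% of all genes, and 0 at FDR < 0.05.

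Mid-aged against young animals gave 0 calls over 96 pairs of a subunit and a region group (edgeR, FDR < 0.1 and absolute log2FC above 1), beside 0.0166% of all pairs. At an unadjusted p below 0.05 there were 12 pairs, 8 higher and 4 lower, beside 5.76% of all pairs. The lowest FDR was that of SCN8A in PA, with a log2FC of 1.07 ± 0.26 (edgeR FDR = 0.231). DESeq2 called 2 pairs, SCN8A in PA (log2FC 1.07, FDR = 0.0873) and in THA (log2FC 1.00, FDR = 0.0778), beside 0.321% of all pairs by DESeq2. The same 2 were called by edgeR without animal 7, beside 0.358% of all pairs.

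Female against male animals also gave 0 calls of 96 pairs by edgeR, beside 0.102% of all pairs, and 4 pairs at an unadjusted p below 0.05, beside 3.63% of all pairs. DESeq2 called 1, SCN3A in MO, at a log2FC of -1.38 (FDR = 0.0461), beside 0.409% of all pairs by DESeq2. The sexes overlapped there. Animals 2 and 3, both mid-aged males, had 296 and 242 CPM, and male animal 7 had 63.8 CPM, inside the range of the females. SCN1A in PIT, at a log2FC of -1.83 (edgeR FDR = 0.223), was called without animal 7 (FDR = 0.0726), beside 0.922% of all pairs. With 4 animals in each group, a difference that misses these limits is not shown to be absent.

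The CPM of mid-aged and young animals did not overlap in 5 of 96 pairs, beside 3.76% of all pairs. SCN1A in CB averaged 260 ± 19.4 CPM in the 4 mid-aged and 180.1 ± 44.5 CPM in the 4 young animals (SD). SCN1A in SN and SCN3B in PIT were also higher in mid-aged animals. SCN2A and SCN3A in PON were lower, at 124 and 34.7 CPM against 171 and 45.3 CPM. Females and males did not overlap in 1 of 96 pairs, SCN9A in CC at 2.77 and 1.39 CPM, beside 2.03% of all pairs.

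The other genes of the channel complex were taken from a list of 22, of which 19 were tested against the cortex. Of 285 pairs of these genes and a region group, 29 were higher and 98 lower, beside 12.3% higher and 12.2% lower over all genes tested.

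SCN4A, the alpha subunit of skeletal muscle, was higher in 12 of 15 region groups. In PIT it stood at 7.19, 27.5 and 41.5 CPM against at most 0.0786 CPM in the cortex, a log2FC of 9.15 ± 0.43 (edgeR FDR = 1.62e-39). SCN7A, a sodium channel gated by salt rather than voltage, was higher in 9 region groups, and most in OB at a log2FC of 5.63 ± 0.33. FGF13, a cytoplasmic partner of the alpha subunits, fell by 4.59 in CB and by 4.19 in PON on the log2 scale, the 2 regions where SCN3B was also lowest.

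Among anchors of the channel, NFASC, a cell adhesion molecule of nodes and initial segments that is also made by oligodendrocytes, was higher in 4 region groups and lower in 0. It was highest against the cortex in CC, at a log2FC of 2.12 ± 0.26 (edgeR FDR = 8.55e-13), where the oligodendrocyte marker mean was 12.62. PRRT2, a presynaptic protein that binds sodium channels, was lower in 10 region groups, and in CC it fell by 4.91 on the log2 scale.

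The genes most like each subunit over the means of 51 sub-regions were found by Pearson correlation, as a description of 51 points that share libraries. For SCN2A they included PRRT2 and ADGRB3, both at 0.950. For SCN8A they were GDAP1, MICU3 and STXBP5L, at 0.956, 0.939 and 0.935, and for SCN1A GDPD1, MRPL35 and MAP2K6, at 0.937, 0.920 and 0.917. SCN3B was most like EFNB3, PFKL and IDS (0.933, 0.917 and 0.902) and SCN3A most like DPYSL4, CMIP and MAGED1 (0.875, 0.874 and 0.868). SCN9A had the lowest values, with LBH, CRACD and SLC6A11 at 0.794, 0.769 and 0.762.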

How the data were processed

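The authors trimmed reads with Trim Galore 0.4.4 only where a sample had poor read quality, and mapped reads to Mmul 8.0.1 with HISAT2 2.0.5. They counted reads on Ensembl genes with HTSeq 0.6.1 and deposited raw counts of reads for each gene. Which strand and overlap options HTSeq had is not given in the sources used here. All samples of the count table were used. The 8 midbrain samples, which the study set aside, and 33 ATAC-seq samples were not analysed here. Depth was 7784678 to 31083490 counts per sample, which leaves low genes imprecise. SCN2B and SCN4B were not analysed here, so the planned ratio of these 2 was dropped and 45 ratio tests were made.

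Tests used edgeR 4.0.16 in R 4.3.3 (limma 3.58.1) with TMM, filterByExpr, quasi-likelihood F tests and FDR by Benjamini-Hochberg over all genes tested. DESeq2 1.42.0 was an alternative. Counts of region groups and lobes were summed within each animal. Tests between regions had the animal as a block. Age stage was tested with sex in the model and sex with age stage. The SE is the absolute log2FC divided by the square root of F. Ratios used counts plus 0.5 and levels a pseudocount of 1. Python 3.11.15, numpy 2.4.6, pandas 2.3.3, scipy 1.17.1 and matplotlib 3.10.9 were used. Scripts were tested on simulated data.

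The number in a sample's label marks the animal, so samples with the same number are paired. Deviations from region means had a median correlation of 0.413 between libraries of the same animal (960 pairs) and -0.055 between animals (6720 pairs).

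The members, lists and tests were chosen with earlier results of these data known. Genes named are the members, genes of the list of the complex with the largest changes, cell type markers beside results, and for each member the 3 genes most like it, with a mean of at least 1 CPM in its highest region group. Some genes that this rule would name are not reported here.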

Additional observations from a re-analysis of the deposited data

Results flagged for a closer look

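Of 96 groups of 8 animals (6 subunits in 16 region groups), 7 had 1 animal whose gap to the next animal as a share of the whole range exceeded Dixon's limit for 8 values. Chance gives such a gap in about 1 of 20 groups. SCN8A in CB was lowest in animal 4, at 33.6 CPM with the next animal at 122 CPM and a gap of 0.752 of the range. SCN8A in HTHA was highest in animal 6, at 157 CPM with the next at 61.0 CPM (gap 0.679), and so was SCN1A in HTHA, at 340 CPM with the next at 197 CPM (gap 0.615). In that library the cortex marker mean was 5.42, against 1.59 to 2.35 in the other 7, and the part of cortical tissue in these values was not tested.

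SCN2A in MO was lowest in animal 6, at 16.7 CPM with the next at 132 CPM (gap 0.545), in the library whose neuron marker mean was 5.80 against 9.40 to 10.19. In GP, SCN2A was highest in animal 3 at 139 CPM with the next at 59.8 CPM (gap 0.660), and SCN1A was lowest in animal 2 at 69.2 CPM with the next at 132 CPM (gap 0.533). SCN3A in AMY was lowest in animal 8, at 96.8 CPM with the next at 130 CPM (gap 0.578).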

How the results depend on the processing

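Of the values recomputed (pairs against the cortex, between lobes and within structures, ratios, highest region groups and variance shares), 0 changed direction. For the 64 pairs of a subunit and a region group at FDR < 0.05 against the cortex, 1138 of 1152 values under the alternatives kept their direction and their side of the call limits, 7 lost the call and 7 gained it. The pairs called numbered 9 or 10 higher and 40 to 43 lower under all alternatives run. Without the hypothalamus library of animal 6 the lower pairs were 42, with SCN2A in HTHA called at a log2FC of -1.08. Without the medulla library of animal 6, an alternative chosen after seeing the data, they were 40, as SCN8A in MO stood at -0.81. Total counts alone or upper-quartile factors moved the median log2FC of all genes by up to 0.22 (OB) and 0.17 (PIT), and SCN3A in HTHA then passed the fold limit at 1.08 and 1.02. SCN2A in THA fell below the fold limit without animal 10.

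Without the replicate block, lobe pairs were 5 higher and 3 lower in place of 8 and 8, and the calls within hippocampus, striatum and cerebellum were 2 in place of 3. The calls of SCN3A in the frontal and parietal lobes were also lost under other settings, leaving out 1 animal among them, and SCN8A in ACb against CN fell below the fold limit without the block, at -0.96. Age stage calls were 2 under DESeq2, 2 with no filter on low counts and 0 to 2 with 1 animal left out. Sex calls were 1 under DESeq2, 1 with no filter and 0 to 1 with 1 animal left out, and animal 7 was the one whose absence gave calls. Ratios lower than in the cortex numbered 9 in place of 14 with the mean of sub-region log2 ratios, and 10 to 13 with 1 animal left out. The causes were not tested. The median count per library was lowest for SCN9A, at 59, and 2 libraries of SCN1A, both of PIT, held at most 3 counts.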
